A study of Mus musculus with 5 samples.

Results

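C/D box small nucleolar RNA (snoRNA) genes were taken as the genes whose GENCODE M21 symbol starts with Snord and whose gene type is snoRNA. This gave 98 of the 55385 genes in the count tables, with 97 symbols, because Snord80 is annotated by 2 overlapping records. Counts were found on 40 of the 98 genes, and the other 58 had 0 counts in all 5 libraries. The data are Surface-seq libraries from EL4 cells, an established mouse T-lymphoma line grown in suspension. Purified cell membranes were wrapped around polymer nanoparticles and the RNA held by them was sequenced. In variation A (3 libraries, A1, A2 and A3) the RNA was extracted from the coated particles and made into a library, which takes in RNA on either side of the membrane. In variation B (2 libraries, B1 and B2) an adaptor was ligated to RNA ends exposed on the assembled particles before purification, which favours RNA facing outward. The comparison of B with A asks which RNAs were exposed on the outside, though the variations also differ in how the library was made, which cannot be told apart from exposure here.

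C/D box snoRNAs are short noncoding RNAs named after a pair of conserved sequence elements, the C box near the 5′ end and the D box near the 3′ end. With fibrillarin and its partner proteins they form particles of the nucleolus that direct ribose methylation of ribosomal RNA, and a few of them act in the cleavage of its precursor. Most mammalian C/D box snoRNAs are cut out of the introns of host genes, while a few have their own promoters.

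The sequences of the members described most closely are printed from the GENCODE M21 transcripts, 5′ to 3′, with GRCm38 positions. Capitals mark the letters TGATGA (C box) in the 5′ part of the RNA and the letters CTGA (D box) in the last 20 bases, where a search of the gene's own strand found them. These 5 members are among those with the highest mean level per kilobase in a variation. Snord82 (ENSMUSG00000064823.1) lies at chr1:86356261-86356330, minus strand, in an intron of Ncl, the gene of the nucleolar protein nucleolin. Snord93 (ENSMUSG00000095205.1) lies at chr5:23852210-23852280, plus strand, in an intron of the noncoding 2700038G22Rik. Snord83b (ENSMUSG00000077734.1) lies at chr15:80078498-80078591, minus strand, in an intron of Rpl3. Snord49a (ENSMUSG00000065734.1) lies at chr11:62603450-62603521, plus strand, in an intron of the noncoding 2410006H16Rik. Snord104 (ENSMUSG00000065126.1) lies at chr11:106500993-106501062, plus strand, with no annotated host.
Snord82: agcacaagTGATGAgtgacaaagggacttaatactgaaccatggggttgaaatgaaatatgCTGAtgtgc
Snord93: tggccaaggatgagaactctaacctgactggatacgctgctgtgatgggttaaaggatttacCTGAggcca
Snord83b: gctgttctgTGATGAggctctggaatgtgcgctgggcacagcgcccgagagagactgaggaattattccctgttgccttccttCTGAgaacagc
Snord49a: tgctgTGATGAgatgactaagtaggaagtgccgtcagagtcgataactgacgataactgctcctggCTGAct
Snord104: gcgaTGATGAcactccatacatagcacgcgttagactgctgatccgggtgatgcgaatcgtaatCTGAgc

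The next members are shown because they had the largest fitted rises beside Snord82 and Snord93 among members with 10 or more counts over variation A, or because the RNA is known from the processing of precursor ribosomal RNA. Snord37 (ENSMUSG00000064441.1) lies at chr10:81178950-81179013, plus strand, in an intron of Eef2. Snord72 (ENSMUSG00000077737.1) lies at chr15:5118404-5118484, plus strand, in an intron of Rpl37. Snord70 (ENSMUSG00000077345.1) lies at chr1:59691934-59692020, plus strand, in an intron of Nop58, whose protein is a core part of the C/D box particle. Snord118 (ENSMUSG00000064899.1) lies at chr11:69073427-69073561, plus strand, with no annotated host. Snord118 is the U8 RNA, needed for the maturation of large-subunit ribosomal RNA.
Snord37: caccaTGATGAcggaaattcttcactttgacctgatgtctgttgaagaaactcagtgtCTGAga
Snord72: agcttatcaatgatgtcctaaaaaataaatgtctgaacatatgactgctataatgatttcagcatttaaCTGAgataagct
Snord70: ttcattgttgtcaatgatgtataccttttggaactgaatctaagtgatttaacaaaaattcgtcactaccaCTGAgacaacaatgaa
Snord118: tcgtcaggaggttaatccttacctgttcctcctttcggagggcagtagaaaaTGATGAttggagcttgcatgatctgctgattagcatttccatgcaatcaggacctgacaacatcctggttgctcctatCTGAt

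Snord17, Snord49b and Snord88c were the most counted of those that did not pass the test. Snord17 (ENSMUSG00000077714.1) lies at chr2:144265979-144266216, minus strand, in an intron of Snx5, and is the longest of the 98 genes at 238 bases. Snord49b (ENSMUSG00000064437.1) lies at chr11:62603079-62603150, plus strand, in 2410006H16Rik like Snord49a. Snord88c (ENSMUSG00000096296.1) lies at chr7:44249852-44249941, plus strand, in an intron of 2410002F23Rik.
Snord17: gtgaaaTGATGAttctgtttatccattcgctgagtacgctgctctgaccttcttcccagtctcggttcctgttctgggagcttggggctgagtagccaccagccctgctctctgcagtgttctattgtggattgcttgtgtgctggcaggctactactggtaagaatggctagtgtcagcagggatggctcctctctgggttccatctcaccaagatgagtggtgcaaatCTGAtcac
Snord49b: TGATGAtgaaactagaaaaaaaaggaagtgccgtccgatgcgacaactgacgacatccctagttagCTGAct
Snord88c: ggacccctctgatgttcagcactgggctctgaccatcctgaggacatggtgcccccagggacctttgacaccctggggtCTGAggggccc

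The box letters were common in the set. The Snord symbol itself names the C/D box class, so the letters describe the set and are not independent of the choice. TGATGA stood in the first 20 bases of 70 of the 98 genes (71.4%) and CTGA in the last 20 bases of 96 genes, and 68 genes (69.4%) held both. None of the 42 H/ACA box genes (Snora symbols) held both, and 1 of 3501 miRNA, snRNA and miscellaneous RNA genes of the same lengths did. The genes ran from 64 to 238 bases, with a median of 84.0. A host on the same strand was annotated for 95 of them, protein-coding for 56 and noncoding for 39.

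The paper's methods do not state how reads that fall on more than 1 gene, or that have several alignments, were counted for these libraries. Whether such reads were left out was not tested. Of the 98 genes, 39 lie wholly within annotated exons of another gene, and all 39 had 0 counts in every library. The same held for all 135 other snoRNA genes covered in full. Snord67, covered over 83.8% of its length by exons of Ckap5, was also at 0. A further 17 are Snord116 copies in Snhg14, the host of the imprinted Snord116 cluster. They are not covered by other exons. Of the 17, 14 share 1 sequence and the other 3 each have their own, and the cause of their zeros was not tested. The remaining gene at 0 was Snord123 in Snhg18, which no exon covers. Exon cover was taken from GENCODE M21, while the counting used M24, and changes between the releases were not checked. For the 39 covered genes a 0 does not show whether their RNA was present. Among them were the 4 Snord14 genes (Snord14a, Snord14c, Snord14d and Snord14e, the U14 RNAs), Snord22 (U22), which are known from small-subunit ribosomal RNA processing, the 4 records in Gas5 and the imprinted Snord64. No gene carries a Snord3 (U3), Snord113, Snord114 or Snord115 symbol in this annotation.

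**Figure D1:**
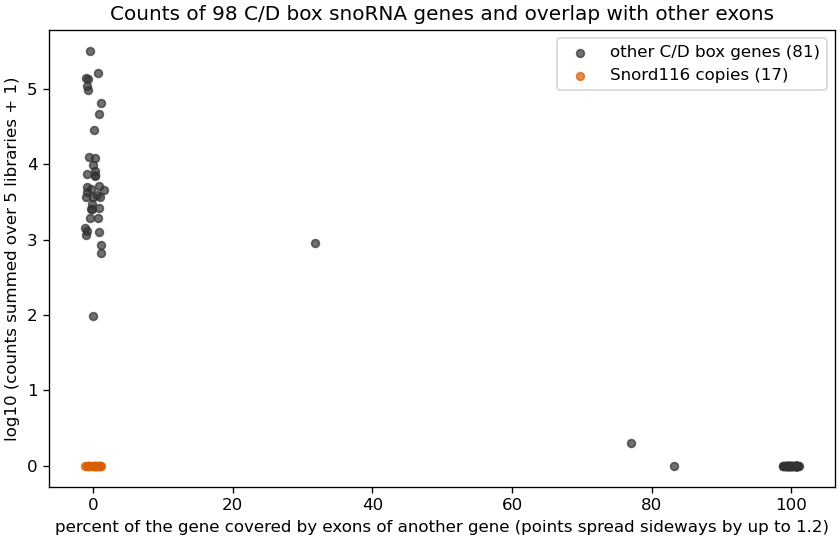
Counts of each of the 98 C/D box genes, summed over the 5 libraries, as log10 of the sum plus 1 (vertical axis) against the percent of the gene covered by exons of another gene (horizontal axis). All 39 genes at 100% have 0 counts, as have the 17 Snord116 copies at 0% overlap, while 37 uncovered genes have counts.

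A read from an unspliced host RNA that falls on an intronic snoRNA gene is counted on the snoRNA. Of the 40 genes with counts, 37 share no base with another gene's exons. The exceptions were Snord42b (31.9% covered, Rpl23a), Snord66 (1.33%, Eif4g1) and Snord111 (77.5%, Sf3b3), and Snord111 had 1 count in A2 and none elsewhere. Values of Snord42b and Snord66 are therefore uncertain.

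The library totals were 2301017 counts for A1, 4502174 for A2, 1187117 for A3, and 21862003 and 22980172 for the variation B libraries. Depth differs between the variations without overlap, so depth and variation cannot be told apart. The C/D box share of the A1 counts was 0.198% (95% Wilson interval 0.192 to 0.203), that of A2 0.0961% (0.0933 to 0.0990) and that of A3 0.0804% (0.0755 to 0.0857). The share was 2.78% for B1 (2.78 to 2.79) and 2.64% for B2 (2.64 to 2.65). Both variation B libraries lay above all variation A libraries, by more than an order of magnitude. Intervals and floors cover counting error only, as reads counted without molecular identifiers can be copies of 1 molecule. The mean share of variation A was 0.125% ± 0.0636 (SD, n = 3 libraries) against 2.71% ± 0.0996 (SD, n = 2) for variation B, a ratio of 21.8 (two-sided exact permutation test, p = 0.1, which is the lower limit of p for 3 libraries against 2). Nothing in the labels says that the libraries came from separate cultures, so p-values measure only the spread between these libraries, which may be technical. The share of ribosomal RNA genes was 52.6% ± 2.29 (SD, n = 3) in variation A against 23.6% ± 0.859 (SD, n = 2). With ribosomal RNA and the mitochondrial genome left out of the totals, the C/D box share was 0.264% ± 0.125 (SD, n = 3) and 3.65% ± 0.0920 (SD, n = 2).

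The other large class, the H/ACA box genes, guides pseudouridine formation rather than methylation. Its 42 genes took 0.00674%, 0.0244% and 0.00792% of the counts across A1 to A3, and 0.103% and 0.0722% across B1 to B2. The ratio of mean shares was 6.73 for H/ACA box genes (12.0 without A2) against 21.8 for C/D box genes (19.5 without A2). Gene by gene the classes were closer: 7 of the 12 H/ACA box genes tested were higher (58.3%, beside 11.0% of all genes tested), with a median log2 fold change of 2.24 against 2.44 for the C/D box genes. The 7 became 8 of 13 without A1, 4 of 13 without A2 and 5 of 13 without A3, where 20.8%, 3.46% and 3.57% of all genes were higher. Without A1 2 H/ACA box genes were lower, and with DESeq2 8 were higher and 1 lower. In both of these fits 15.0% of all genes and 0 C/D box genes were lower. The H/ACA box median was 1.70 without B1 and 2.58 without B2. Of all snoRNA counts, C/D box genes took 57.9% ± 5.34 (SD, n = 3 libraries) for variation A, close to the 55.5% ± 0.215 (SD, n = 2) for variation B. Of the 42, 26 were at 0 in all 5 libraries, 22 of them covered in full by exons of other genes, so the ratio of the classes sets 40 genes with counts against 16. Inside each library, C/D box counts outnumbered H/ACA box counts by 29.3 times (A1), 3.93 (A2) and 10.2 (A3) for variation A, against 27.0 (B1) and 36.6 (B2). A1 lay within the range of variation B, and A2 and A3 lay below it. The mean log2 ratio was higher by 1.58 in variation B (two-sided exact permutation test, p = 0.3), so the 2 classes were not shown to differ in their change. The difference in log2 ratio was 2.31 without A1, 0.86 without A2 and 0.82 without the most counted member of each library. A1 also stood apart in its small nuclear RNA share, at 0.847% against 12.1% in A2 and 13.1% in A3, with 1.18% in B1 and 0.632% in B2. The part of that in the C/D box results was not tested.

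**Figure D2:**
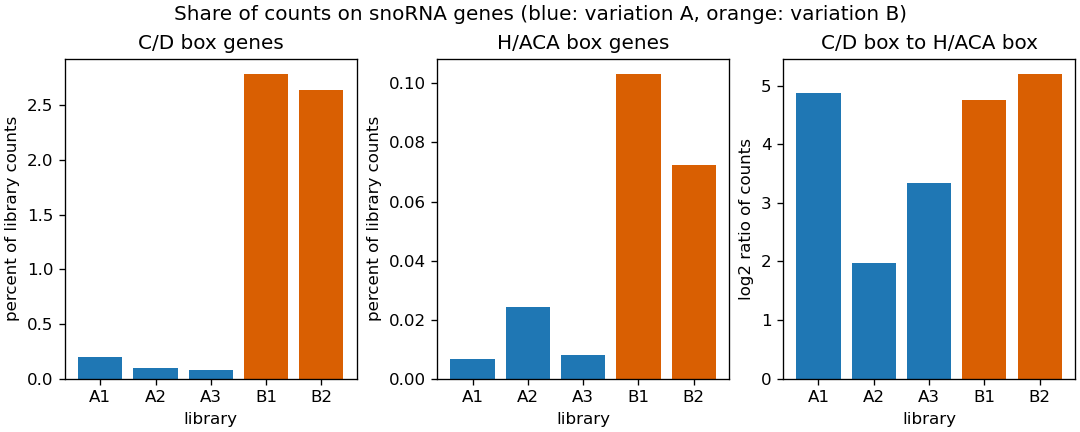
Percent of library counts on C/D box genes and on H/ACA box genes, and the log2 ratio of their counts, in each of the 5 libraries (blue bars, variation A; orange bars, variation B). The C/D box share is at most 0.198% in variation A and at least 2.64% in variation B, while the ratio of A1, 4.87, falls among the variation B values.

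The number of members seen cannot pass the 40 with counts. Variation B was close to that limit, so the difference in number cannot be set against that in share. At a CPM (counts of a gene scaled by the library total) above 2, 31 members were detected for A1, 30 for A2, 28 for A3, and 39 and 38 for the variation B libraries. At 3 counts, the floor used here, the smallest CPM that could be seen was 1.30, 0.666 and 2.53 across A1 to A3, and 0.137 and 0.131 across B1 to B2. Reduced to the total of A3, B1 would be expected to show 38.5 members with 3 or more counts and B2 38.3, against 32.0 in A1, 29.9 in A2 and 28.0 in A3. So fewer members reached 3 counts in variation A also at equal totals.

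A few members held most of the counts. The 5 most counted took 71.8% of the C/D box counts (A1), 61.4% (A2) and 66.6% (A3) for variation A, against 70.1% (B1) and 71.2% (B2). The most counted member was Snord82 in A1, B1 and B2, Snord83b in A2 and Snord104 in A3. Snord82 alone took 23.6% of C/D box counts for A1, 2.52% for A2, 0.628% for A3, and 25.5% and 26.6% for the variation B libraries. In this respect A1 was close to variation B and far from A2 and A3.

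Of the 40 members with counts, 38 passed the filter on low counts and were tested with edgeR over all 10287 genes that passed it. A gene was called at a Benjamini-Hochberg adjusted p under 0.05 with a change of more than 2-fold. In variation B 29 of the 38 were higher, against 11.0% of all genes tested, and 0 were lower, against 12.4%. At an unadjusted p under 0.05, edgeR also gave 0 lower, and DESeq2 called 29 higher and 0 lower. The median log2 fold change was 2.44 over the 38 members and 0.05 over all genes tested. For 31 of the 38, both variation B libraries lay above all 3 variation A libraries, against 31.2% of all genes tested. A gene can pass the filter through variation B alone, which is deeper. Of the 13 members with 10 or more counts in every variation A library, 8 were called higher and 5 were not called. The share called among all genes with as many counts is not given here, so the 8 cannot be set against the 11.0%. The call count was 15 without B1 and 16 without B2, where the share of all genes called higher also fell, to 1.92% and 1.55%. It was 29 without A1, where 20.8% of all genes were higher and the members' median was 2.95.

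The log2 fold changes use TMM scaling, in which the middle of the expression range is taken as unchanged. With library totals alone, the median of all genes moved from 0.05 to 1.50, and 5654 genes were called higher and 302 lower in place of 1135 and 1276. The members' median was then 3.87 with 34 called higher, which is 2.38 above the median of all genes, against 2.39 with TMM. The fitted values of 33 of the 38 members were above 0 with TMM, RLE and upper quartile scaling and with DESeq2. The other 5 (Snord17, Snord35a, Snord53, Snord88c and Snord89) were below 0 in each of these and above 0 with library totals.

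**Figure D3:**
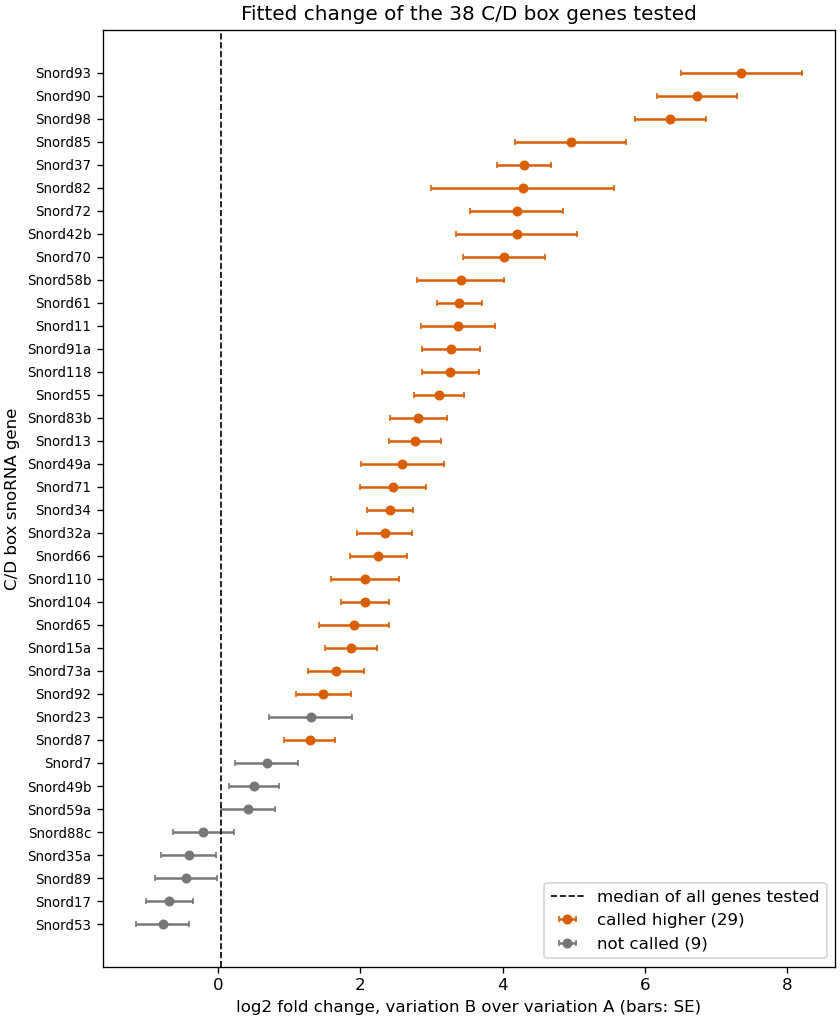
Log2 fold change of variation B over variation A for the 38 C/D box genes tested (points) with its standard error (bars), in order of size. The dashed line is the median of all 10287 genes tested, 0.05, and the values run from -0.78 (Snord53) to 7.36 (Snord93); with library totals in place of TMM all 38 values lie above 0.

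Levels between genes were compared as normalised CPM (CPM on the TMM-scaled total) per kilobase of gene. In variation A the order was Snord49a at 2966 ± 1982 (SD, n = 3), Snord83b at 2914 ± 929, Snord82 at 2765 ± 4164, Snord104 at 2610 ± 623 and Snord55 at 2366 ± 385. These 5 did not differ beyond their spread. In variation B Snord82 led with 54232 ± 314 (SD, n = 2), above Snord93 at 23323 ± 1312, Snord83b at 20557 ± 1358, Snord55 at 20413 ± 1105 and Snord49a at 17974 ± 311. Snord82 stood clear of the rest, and Snord83b and Snord55 were within each other's spread. Snord93 moved from place 22 of the members in variation A to place 2. Across the 38 members tested, Spearman's rho between the levels per kilobase in the 2 variations was 0.51, a description over genes that share libraries.

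Snord82 had a normalised CPM of 529.6, 42.2 and 8.85 across A1 to A3, and 3781 and 3812 across B1 to B2. The variation A libraries ranged widely and all lay below variation B. Its log2 fold change was 4.28 (SE 1.28, edgeR adjusted p = 0.0429), and the call was lost without A2, A3, B1 or B2, with log2 fold changes from 3.78 to 4.28 and adjusted p-values from 0.0732 to 0.148. Without A1 it was 7.09 (adjusted p = 3.51e-07). Snord93 had a normalised CPM of 1.98 (A1), 21.3 (A2) and 4.43 (A3) for variation A, against 1590 (B1) and 1722 (B2). It was near the floor in A1 and A3, with 4 and 3 counts, against 55 in A2. Its log2 fold change of 7.36 (SE 0.85, edgeR adjusted p = 0.00164) was the largest of the 38 members with all 5 libraries. It was 9.29 without A2, and 6.80 without A1, below the 7.09 of Snord82 there.

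Snord83b had a normalised CPM of 373.0 for A1, 240.6 for A2, 208.0 for A3, and 2023 and 1842 for the variation B libraries, a log2 fold change of 2.82 (SE 0.40, edgeR adjusted p = 0.00383). Snord55 had 221.8, 166.2 and 172.6 in variation A, with 1674 and 1551 in variation B, a log2 fold change of 3.11 (SE 0.36, adjusted p = 0.00156). For both, variation B lay well above variation A. Snord49a had 354.7, 216.6 and 69.3 across A1 to A3, and 1310 and 1278 across B1 to B2, a log2 fold change of 2.59 (SE 0.58, edgeR adjusted p = 0.0176). Snord104 had 132.4 (A1), 206.2 (A2) and 209.5 (A3) for variation A, against 740.6 (B1) and 783.3 (B2), a log2 fold change of 2.06 (SE 0.34, edgeR adjusted p = 0.00648). Variation B was above variation A in all of these, and the calls of Snord49a and Snord104 were lost when either variation B library was left out, that of Snord49a also without A2. Without A1 Snord49a was at 3.22.

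U8 (Snord118) was listed for a role in ribosomal RNA processing, and U13 (Snord13) was listed with it. U8 had a normalised CPM of 74.6, 133.7 and 153.4 across A1 to A3, and 1198 and 1109 across B1 to B2. Its log2 fold change was 3.27 (SE 0.40, edgeR adjusted p = 0.00201). U13 (Snord13) had 10.4, 5.04 and 7.38 across A1 to A3, and 53.9 and 48.8 across B1 to B2, a log2 fold change of 2.77 (SE 0.37, edgeR adjusted p = 0.00287). Both rose, and neither has an annotated host on its strand.

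**Figure D4:**
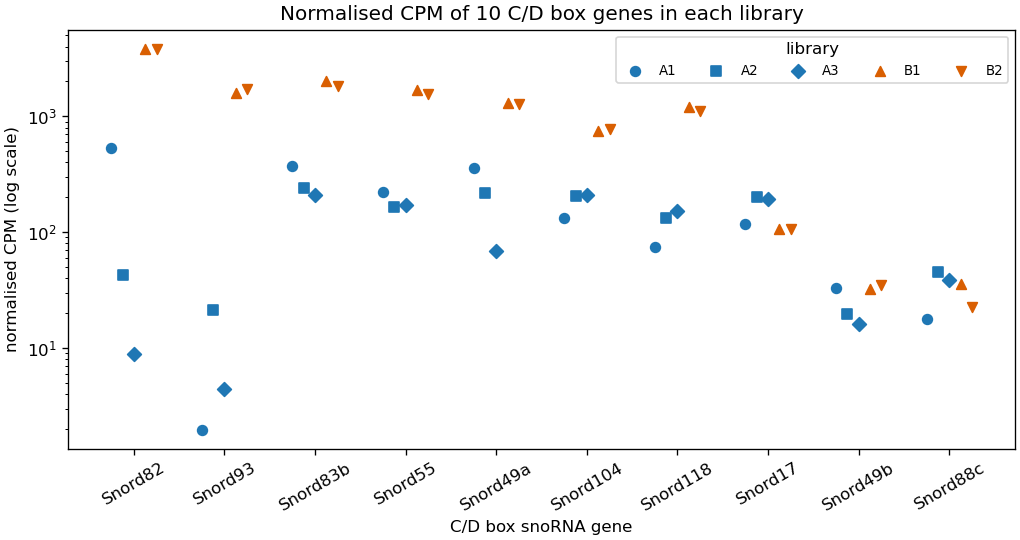
Normalised CPM on a log axis of 10 C/D box genes in A1, A2, A3 (blue) and B1, B2 (orange). For the first 7 genes both variation B libraries lie above all of variation A, while Snord17, Snord49b and Snord88c overlap or lie lower; with library totals Snord17 and Snord88c have fitted values above 0.

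Among the largest rises with at least 10 counts over variation A, Snord37 had a normalised CPM of 23.2 (A1), 16.3 (A2) and 10.3 (A3) for variation A, against 373.0 (B1) and 309.2 (B2). Its log2 fold change was 4.30 (SE 0.37, edgeR adjusted p = 0.000577). Snord72 had 9.88, 2.33 and 0 in variation A with 77.8 and 97.8 in variation B, and Snord70 had 6.92, 2.33 and 0 with 61.2 and 58.2. Their log2 fold changes of 4.20 (SE 0.65, edgeR adjusted p = 0.00517) and 4.02 (SE 0.58, adjusted p = 0.00387) rest on 26 and 20 counts over variation A, and were 5.70 and 5.15 without A1. Each of these 3 rose in both variation B libraries relative to all of variation A. Snord90, Snord98, Snord85 and Snord42b, singled out after their values were seen, were also called higher but had at most 4 counts over all of variation A, so their fitted folds depend on the prior count and are not given as sizes.

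The 3 most counted members that were not called had fitted log2 fold changes from -0.69 to 0.51. Snord17 had a normalised CPM of 116.6 for A1, 199.95 for A2, 194.7 for A3, and 105.5 and 106.0 for the variation B libraries. Variation B lay below all of variation A, with a log2 fold change of -0.69 (SE 0.33, edgeR adjusted p = 0.159), which was 0.85 with library totals and -0.78 without A1 (adjusted p = 0.00229). Snord49b had 33.1, 19.8 and 16.2 in variation A, with 32.0 and 35.1 in variation B, a log2 fold change of 0.51 (SE 0.35, edgeR adjusted p = 0.308), which was 0.96 without A1 (adjusted p = 0.00784) and 1.90 with library totals (adjusted p = 0.0202, called higher). Snord88c had 17.8, 45.3 and 38.4 in variation A and 35.6 and 22.7 in variation B, a log2 fold change of -0.20 (SE 0.43, edgeR adjusted p = 0.744), which was 1.36 with library totals (adjusted p = 0.0228, called higher). The groups overlapped for both.

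Some members from introns of 1 host differed in their change. Their ratios inside a library do not depend on its total or scaling, and 4 hosts have 2 or 3 members tested, which gave 8 pairs. These were chosen after their values were seen, and the ratios are given without a test. The variations did not overlap for 5 of the 8 pairs and overlapped for 3. The share without overlap among pairs of other genes is not given, so the 5 cannot be set against it. For single genes, both variation B libraries lay above all of variation A in 31.2% of all genes tested. In Wdr43, Snord53 made up 67.5% of the counts of Snord53 and Snord92 together for A1, 65.1% for A2 and 69.2% for A3, against 28.0% and 31.1% in variation B. In 2410006H16Rik, Snord49b made up 8.54% of Snord49b plus Snord49a for A1, 8.36% for A2 and 19.0% for A3, against 2.39% and 2.67% in variation B. In Rpl13a, Snord35a made up 31.7% of Snord35a plus Snord32a for A1, 9.92% for A2 and 12.0% for A3, against 3.14% and 2.36% in variation B. Snord49b also made up 63.8%, 51.5% and 84.6% of Snord49b plus Snord65 in variation A, against 32.8% and 43.3%, and Snord35a made up 56.7%, 45.2% and 60% of Snord35a plus Snord34, against 14.6% and 13.3%. These 5 pairs each set a member not called against a called one, so they restate the calls inside a library, and only Snord53, Snord49b and Snord35a stand behind them. In A3 the pairs had 13 counts (Snord53 with Snord92), 58 and 13 (Snord49b with Snord49a and with Snord65), and 100 and 20 (Snord35a with Snord32a and with Snord34). Of the pairs that overlapped, Snord34 beside Snord32a in Rpl13a made up 26.2%, 11.8% and 8.33% in variation A and 16.0% and 13.6% in variation B. Snord65 beside Snord49a in 2410006H16Rik made up 5.03%, 7.91% and 4.08% and then 4.77% and 3.47%. Snord11 beside Snord70 in Nop58 made up 22.2%, 76% and 100% and then 44.0% and 40.5%, from 18, 25 and 1 counts of the pair across A1 to A3.

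Of the 29 hosts of tested members 26 were tested, and 4 were higher, 1 lower, beside 11.0% and 12.4% of all genes tested, with a median log2 fold change of 0.09. With library totals 15 were higher and 0 lower, beside 55.0% of all genes higher. Without A1 9 of 27 were higher and 3 lower, beside 20.8% and 15.0% of all genes. Without A2 or A3 1 of 27 was higher and 1 lower, beside 3.46% to 3.86% of all genes in each direction. Without B1 or B2 1 was higher and 0 lower, beside 1.32% to 2.30%. The member lay above its host in 26 of the 32 members with a tested host, and the median of member minus host over all 32 was 2.40. Without the members of fewer than 10 counts over variation A, left out after seeing the data, it was 23 of 29 with a median of 2.29. Hosts with few counts were kept, such as AA465934 (1, 5 and 4 across A1 to A3), Rpl13a (10, 22 and 5) and Snhg6 (22, 11 and 1). The host median was near the 0.05 of all genes, so the 2.40 mostly restates the members' own median of 2.44. Rpl3 was lower in variation B (log2 fold change -1.62, edgeR adjusted p = 0.0180; -0.24 with library totals, adjusted p = 0.713; -1.54 without B1, adjusted p = 0.153, and -1.71 without B2, adjusted p = 0.150), while Snord83b in its intron rose. The 4 hosts called higher were 2410006H16Rik (2.28, edgeR adjusted p = 0.00422), Snhg6 (2.14, adjusted p = 0.0211), Ccar1 (1.77) and Rc3h2 (1.74). In 2410006H16Rik, Snord49a was at 2.59, Snord65 at 1.91 and Snord49b at 0.51, and Snord87 in Snhg6 was at 1.29. Ccar1 and Rc3h2 hold Snord98 and Snord90. Spearman's rho between member and host was 0.16 over the 32 members, some of which share a host, and -0.002 over the 29. Of the 10 tested members in the 8 ribosomal protein hosts, 9 were higher, among them Snord42b with 3 counts over variation A. Of 28 members in protein-coding hosts 22 were higher, and of 7 in noncoding hosts 4. These counts stand beside 29 of all 38 members (76.3%) and 11.0% of all genes tested, and differences between host types were not tested.

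**Figure D5:**
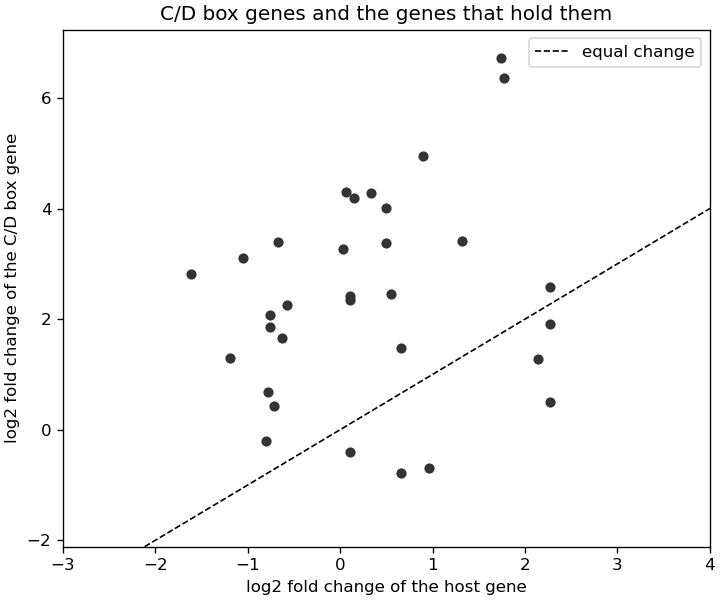
Log2 fold change of each of 32 C/D box genes (vertical axis) against that of its host gene (horizontal axis), variation B over variation A. The dashed line marks equal change, 26 points lie above it, and the median difference is 2.40.

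Length and base composition were described across the 38 members, which share libraries. Spearman's rho of the log2 fold change was -0.36 with length and -0.45 with GC percent, and -0.36 and -0.40 over the 34 members with 10 or more counts over variation A, a limit set after seeing the data. Of 17 members up to 75 bases 15 were called higher, of 14 from 76 to 99 bases 10, and of 7 of 100 or more 4. These stand beside 29 of all 38 members (76.3%) and 11.0% of all genes tested. Among the 34 it was 12 of 14, 10 of 14 and 3 of 6, beside 25 of all 34. The median length was 75 bases for the 29 called (79 for the 25 of them among the 34) and 90 for the 9 not called, with GC medians of 43.5% (45.9%) and 50.5%. TGATGA in the first 20 bases was present in 16 of the 29 called and 7 of the 9 not called.

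Among the mRNAs of proteins that build C/D box particles, all 19 listed genes were tested and 0 were higher in variation B (1 at an unadjusted p under 0.05, 0 with DESeq2), while 4 were lower. The lower ones were Fbl, the methyltransferase fibrillarin (log2 fold change -1.16, edgeR adjusted p = 0.0492), Rrp9 (-2.54, adjusted p = 0.00861) and Imp3 (-1.75, adjusted p = 0.0296) of the U3 particle, and Ruvbl2, an assembly factor (-1.60, adjusted p = 0.0277). Nop56 and Nop58 were not called. These counts stand beside 11.0% higher and 12.4% lower of all genes tested. With library totals 10 of the 19 were higher and 0 lower, where 55.0% of all genes were higher, and none of the 4 was called: Fbl turned to 0.26, Rrp9 was at -0.997, Imp3 at -0.17 and Ruvbl2 at -0.05. Leaving out 1 library also moved the counts, to 6 higher and 3 lower without A1 (all genes 20.8% and 15.0%), 0 and 1 without A2, A3 or B1 (all genes 1.92% to 3.57% and 2.30% to 3.86%), and 0 and 0 without B2 (all genes 1.55% and 1.32%). Fbl was not called in any of these 5 fits. Of 6 other nuclear RNAs 4 were tested. Malat1 rose (log2 fold change 2.34, edgeR adjusted p = 0.00619), Rpph1, the RNA of RNase P, was lower (-2.70, adjusted p = 0.0124), and Neat1 (-0.43, adjusted p = 0.367) and Rn7sk (-0.34, adjusted p = 0.522) were not called. With library totals Malat1 was at 3.74 (adjusted p = 0.00572), Rpph1 at -1.11 (adjusted p = 0.0763), Neat1 at 1.09 (adjusted p = 0.0280, called higher) and Rn7sk at 1.12 (adjusted p = 0.0528). The calls of Malat1 and Rpph1 were lost without B1 (adjusted p = 0.0516 and 0.0663) and without B2 (0.0685 and 0.133). The 2 not tested, Rmrp and Terc, had 0 counts in all 5 libraries.

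Cell type markers were checked in every library. All 9 T-lymphocyte markers had counts in all 5 libraries, with a summed CPM of 662.3, 384.7 and 367.3 across A1 to A3, and 1921 and 1894 across B1 to B2, with Thy1 the most counted, and 2 of 9 were called higher (Cd3e and Cd3g), beside 11.0% of all genes tested. With library totals 7 of 9 were higher, beside 55.0% of all genes. The count was 4 of 9 without A1, 1 without A2 or A3 and 0 without B1 or B2, where the share of all genes moved the same way (20.8%, 3.46%, 3.57%, 1.92% and 1.55%). The 4 B-lymphocyte markers summed to at most 0.503 CPM in a library and the 3 erythroid markers to at most 0.274. The 4 myeloid markers summed to 1.30, 2.89 and 1.68 CPM in variation A and 5.21 and 5.79 in variation B, and did not move together. Lyz2, at 0 in all of variation A, was called higher (edgeR adjusted p = 0.0365), with 73 counts for B1 against 133 for B2. No myeloid marker was called higher without A2, without A3 or in a test against a fold change of 2. Csf1r (0, 7 and 2 counts across A1 to A3, and 5 and 0 across B1 to B2), Itgam (0, 4 and 0, then 20 and 0) and Cd68 (3, 2 and 0, then 16 and 0) were not tested and were at 0 in B2. The 2 fibroblast markers summed to at most 0.869 CPM. The part of these in the C/D box values was not tested.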

How the data were processed

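The deposited values are counts per gene, made by the authors with Trimmomatic 0.36, STAR 2.7.3a (GRCm38) and featureCounts 1.6.4 on GENCODE M24 exons, without normalization. Symbols, hosts, exon overlaps and sequences were taken from GENCODE M21, which gave a symbol to 55144 of the 55385 genes. Variation B was compared with variation A by the quasi-likelihood test of edgeR 4.0.16 (R 4.3.3) after filterByExpr and TMM scaling. P-values were adjusted over all genes tested by Benjamini-Hochberg. The fit was also run on simulated counts. These had the same dispersion for every gene and, apart from the genes changed, the same expression profile in every library. The real libraries differ more, so that run cannot show how well false calls are limited here. DESeq2 1.42.0 was an alternative. Shares and ratios were compared by exact permutation tests in Python 3.11.15, with Wilson intervals from scipy 1.17.1. No pair of libraries agreed within sampling noise (chi-square per degree of freedom at least 9.49). The members named were the 5 with the highest level per kilobase in each variation. Added to them were the 5 largest rises without overlap and with 10 or more counts over variation A. Up to 5 largest falls among those called were also to be named (there were none). The RNAs listed for ribosomal RNA processing and the 3 most counted members not called completed the list. Others were chosen after their values were seen. A host gene and some sequences are not reported here. Members and lists were chosen with earlier results of these data known.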

Additional observations from a re-analysis of the deposited data

Results flagged for a closer look

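The members were chosen by symbol, and signal also lay on snoRNA genes left out by that choice. The 1365 snoRNA genes with other names had a mean share of 0.0711% in variation A and 2.07% in variation B, a ratio of 29.0. Of these, 55 were tested with edgeR, and 23 were higher and 4 lower, beside 11.0% and 12.4% of all genes tested. Among the 1365 genes, 239 hold TGATGA in the first 20 bases and CTGA in the last 20. They took 0.0745% of the counts (A1), 0.0243% (A2) and 0.0168% (A3) for variation A, against 1.44% (B1) and 1.28% (B2). The mean over variation B was 1.36%. Of the 14 tested with edgeR, 9 were higher in variation B, beside 11.0% of all genes tested, and 5 without B1 or B2. The most counted was Gm22980, with a normalised CPM of 156.6 for A1, 75.95 for A2, 57.5 for A3, and 3640 and 3222 for the variation B libraries (log2 fold change 5.14, edgeR adjusted p = 0.00121; 5.77 without A1). The box letters are a description and do not class these genes.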

How the results depend on the processing

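The number of members called higher was 29 with RLE scaling, with DESeq2, without a filter on low counts, without ribosomal and mitochondrial genes and with the adjusted p alone, and 34 with library totals. Of all genes, 11.1% were higher with RLE scaling, 11.7% with DESeq2, 4.82% without the filter and 55.0% with library totals. Without ribosomal and mitochondrial genes 11.5% were higher. The number of members was 26 with the replicate block and 21 in a test against a fold change of 2, beside 7.4% and 2.81% of all genes. All 29 calls were kept with RLE and upper quartile scaling and DESeq2. Without the members that share exon bases with another gene it was 27. Leaving out 1 library gave 15 to 29 calls, and without B1 or B2 the lone library is assumed to vary like variation A. The number lower was 0 throughout. The median log2 fold change was 3.87 with library totals, where the median of all genes was 1.50, and 2.28 to 2.95 with 1 library left out. The share and the ratio kept their direction in every alternative, with 2.52 to 2.66 percentage points and a log2 ratio of 0.86 to 2.31 with 1 library left out, and 1.92 and 0.82 without the most counted member of each library. Leaving all snoRNA genes out of the normalization, chosen after seeing the data, gave 29 calls, beside 11.1% of all genes, and a median of 2.45.

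Of the members named, Snord17 reversed to 0.85 with library totals, and Snord88c to 1.36 with library totals, 0.016 without the filter, and it ran from -0.58 to 0.22 with 1 library left out (0.22 without A2, 0.073 without B2). The cause was not tested for the last 3. Without A1, Snord17 was at -0.78 with an edgeR adjusted p of 0.00229, against a range of 0.00229 to 0.967 over its alternatives.

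The replicate numbers 1 and 2 occur in both variations, but the labels do not say that they mark a shared batch. The deviations of same-numbered libraries correlated at -0.10 and -0.03 over all genes, so the replicate block of 26 calls is given here only. The 0.1 limit of the exact test, the low counts of variation A and the 58 genes at 0 limit what these libraries can show.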
